A study of Mus musculus with 17 samples.

Results

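The genes described here encode the matrix metalloproteinases (MMPs), the tissue inhibitors of metalloproteinases (TIMPs), the ADAMTS proteases (a disintegrin and metalloproteinase with thrombospondin motifs) and the ADAMTS-like (ADAMTSL) glycoproteins of the mouse heart. Members were taken by gene symbol and protein-coding annotation, with no use of measured values, which gave 43 of the 21798 genes listed in the deposited table: 17 MMPs, 4 TIMPs, 17 ADAMTS and 5 ADAMTSL genes. Of these, 38 reached 0.5 counts-per-million (CPM) in at least 3 libraries and were tested among 16218 genes (13 MMPs, 4 TIMPs, 16 ADAMTS and 5 ADAMTSL genes).

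MMPs and ADAMTS proteases are zinc-dependent enzymes that are secreted or held at the cell surface, where they cut collagens, proteoglycans and other proteins of the extracellular matrix. TIMPs bind the active site of these enzymes and block it, so the balance of enzyme and inhibitor sets how fast matrix is turned over. ADAMTSL proteins share the carboxy-terminal modules of the ADAMTS proteases but have no protease domain, and several bind fibrillin microfibrils. In a pressure-overloaded ventricle, these genes are known for their part in fibrosis and chamber remodelling.

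Bulk RNA-sequencing was performed on the left ventricle apex of male C57Bl6/J mice, 3 weeks after transverse aortic constriction (TAC, a surgical narrowing of the aorta that overloads the left ventricle with pressure) or a Sham operation at 7 to 8 weeks of age. From 1 week after surgery the mice received 6 oral gavages of either 29P at 50 µg/kg, a prodrug of a small RGD mimetic directed at αvβ3 integrin, or the same volume of saline vehicle (Veh). The labels name no transgene or deletion in any group. Of the 17 libraries, 6 were TAC 29P, 3 TAC Veh, 3 Sham 29P and 5 Sham Veh, and each library is named by its number in the labels (S1 to S20). A TAC Veh library that grouped with the Sham libraries was among those the authors left out before deposit, so the TAC Veh libraries were in part selected by how far they stood from Sham. Each library carries its own identifier, nothing in the labels says more of their origin, and p-values measure the spread between these libraries.

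Estimated depth was about 14100000 to 23700000 reads (median 20400000), lowest in S14 of Sham 29P, so 0.5 CPM was about 10.2 reads at the median depth. Mitochondrially encoded transcripts took 29.1 to 40.0% of the CPM in Sham libraries, highest in S14, and 23.6 to 29.4% in TAC libraries. The median gene was 0.33 higher on the log2 scale in TAC Veh than in Sham Veh and 0.36 higher in TAC 29P than in Sham 29P, so the log2 differences of the members are to be read against those shifts. All 17 libraries held the cardiomyocyte transcripts of the labelled tissue (Myh6, Actn2, Tnnt2, Ttn, Ryr2 and Myl2 summed to between 24923 and 40229 CPM). Libraries S19 and S20 (Sham Veh) and S18 (TAC 29P) also held transcripts of atrial muscle. Myl7, the atrial regulatory light chain, was 335 CPM in S18, 895 CPM in S19 and 723 CPM in S20, against at most 1.002 CPM in the other 14 libraries, and Myl4, Sln and Myl7 with Bmp10 summed to 1529, 2543 and 2032 CPM in S18, S19 and S20 against at most 5.75 CPM. Without these 3 libraries, 14 of 38 members were called higher in TAC Veh, beside 14.4% of all genes, and 16 in TAC 29P, beside 31.3%. Calls gained or lost by that omission are given with each gene. All 17 libraries stand in the values below unless an omission is named.

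The zinc-binding motif of the catalytic domain is a mark of the proteases, although the search below did not find it in all of them. Its coding bases are shown for members on which the results below turn. The motif was searched as 3 histidine codons in fixed spacing (histidine, glutamate, any 2 residues, histidine, any 2 residues, glycine or asparagine, any 2 residues, histidine) in the coding sequence of each member (GENCODE vM21, mouse build mm10). The glycine form was found in all 17 MMPs and in 11 of 17 ADAMTS genes, the asparagine form in 5 ADAMTS genes (Adamts1, Adamts4, Adamts9, Adamts15 and Adamts20), and neither form in Adamts8, in the 4 TIMPs or in the 5 ADAMTSL genes. In these coding-strand sequences of 33 bases the histidine codons are in capitals:
Mmp2: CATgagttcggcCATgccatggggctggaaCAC
Mmp14: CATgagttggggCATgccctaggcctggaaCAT
Mmp23: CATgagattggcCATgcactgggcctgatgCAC
Adamts2: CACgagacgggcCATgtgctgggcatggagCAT
Adamts10: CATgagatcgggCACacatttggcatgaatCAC
Adamts1: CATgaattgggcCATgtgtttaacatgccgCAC
Adamts15: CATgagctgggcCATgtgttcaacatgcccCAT

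TAC was compared with Sham within each treatment to ask which of these genes pressure overload altered. In TAC Veh against Sham Veh, 14 of 38 members (36.8%) were higher at an adjusted p of 0.05 or less and 0 were lower, beside 23.6% of all genes called higher and 1.98% called lower. In TAC 29P against Sham 29P, 15 of 38 (39.5%) were higher and 0 lower, beside 31.5% and 1.15% of all genes. Each test was limma on log2(CPM + 0.1) with Benjamini-Hochberg adjustment over all 16218 genes, and fold changes below are on that scale. The 2 comparisons share no library, but both used 1 spread per gene from all 17 libraries, so they are not independent tests. The 12 members that rose in both were Timp1, Timp2, Mmp2, Mmp14, Mmp23, Adamts2, Adamts10, Adamts12, Adamts17, Adamtsl1, Adamtsl2 and Adamtsl5. Adamts6 and Mmp28 passed in the vehicle comparison alone, and Adamts8, Adamts20 and Mmp12 in the 29P comparison alone. In this fit, the test of the difference between the comparisons reached an unadjusted p of 0.05 for none of these 5 (other fits of Adamts6 are given below). In CPM as deposited, no member was lower in either comparison at an unadjusted p of 0.05, which changed with rescaling (below).

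The median member was 0.73 higher in TAC Veh and 0.84 higher in TAC 29P, beside 0.33 and 0.36 for all genes. Members above 0 numbered 31 of 38 in the vehicle comparison and 35 of 38 in the 29P comparison, beside 81.2% and 83.8% of all genes. Every TAC library lay above every Sham library of the same treatment for 12 members in the vehicle comparison and 13 in the 29P comparison, and 0 members lay wholly below in either. Among all genes, 27.6% lay wholly above and 2.23% wholly below in the vehicle comparison, and 25.0% and 1.08% in the 29P comparison, beside 31.6% and 34.2% of members wholly above. Rescaling the libraries by trimmed means of M-values (TMM) brought the median gene to 0.01 in both comparisons. With TMM factors, 8 members were called higher in TAC Veh, beside 4.45% of all genes, and 10 in TAC 29P, beside 5.89%. All of those were among the calls above, and 6 of them were the same in both comparisons (Mmp2, Mmp23, Adamts2, Adamts10, Adamtsl2 and Adamtsl5). Timp2, Adamts17 and Adamtsl1 passed in neither comparison under TMM, and Timp1, Mmp14 and Adamts12 passed in only 1. In the same limma fits, Adamts15 was lower in TAC Veh than in Sham Veh (-0.69, unadjusted p = 0.0077, adjusted p = 0.0638). Timp4 was lower in TAC 29P than in Sham 29P (-1.02, unadjusted p = 0.0383, adjusted p = 0.147). Neither was called after adjustment. At the unadjusted threshold named above, 2195 and 2298 of 16218 genes were lower in these fits.

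**Figure D1:**
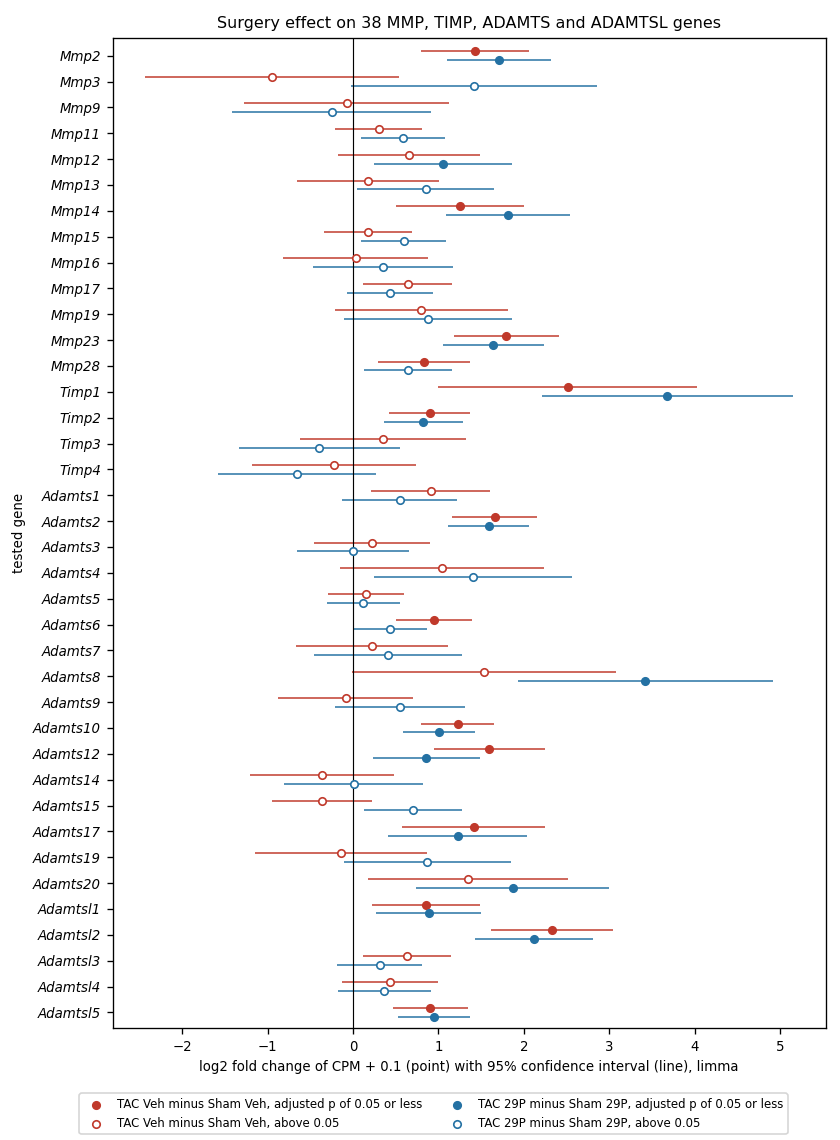
Difference between TAC and Sham for the 38 tested members. The horizontal axis is the log2 fold change on the log2(CPM + 0.1) scale with its 95% confidence interval, red for vehicle and blue for 29P, and filled points have an adjusted p of 0.05 or less. Filled points lie to the right of 0 in every case, with Timp1 and Adamtsl2 among the farthest, while Timp3, Timp4 and Mmp9 have open points near or below 0.5.

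Of the 4 inhibitors, Timp1 and Timp2 rose after TAC in both treatments, whereas Timp3 and Timp4 did not pass the test in either. Timp1, the inhibitor that is induced by injury and inflammation, was 1.14, 2.01, 0.903, 6.70 and 2.35 CPM in the Sham Veh libraries S5, S6, S13, S19 and S20 and 32.8, 3.72 and 14.1 CPM in the TAC Veh libraries S2, S12 and S16. It was 1.80, 0.282 and 0.528 CPM in the Sham 29P libraries S4, S14 and S15, and the 6 TAC 29P libraries ran from 4.83 CPM through a median of 9.33 to 29.1 CPM. S12 of TAC Veh fell inside the Sham Veh range, below S19, while under 29P the groups did not overlap. The log2 fold change was 2.51 (SE 0.72, adjusted p = 0.0206) in vehicle and 3.68 (SE 0.70, adjusted p = 0.0028) under 29P, and the exact two-sided permutation p was 0.0357 (n = 5 and 3 libraries) and 0.0119 (n = 3 and 6 libraries). The smallest p that these exact divisions allow is 0.0179 for 5 against 3 libraries and 0.0119 for 3 against 6. In the vehicle comparison the call of Timp1 was lost without S2 (1.79, adjusted p = 0.155) or S16 (2.40, adjusted p = 0.0617).

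Timp2, which blocks MMPs and also helps MMP14 activate the MMP2 precursor, was 80.6, 57.2, 100.3, 97.7 and 130.0 CPM in Sham Veh and 188, 149 and 168 CPM in TAC Veh. It was 98.1, 66.5 and 88.3 CPM in Sham 29P and 106 to 189 CPM, median 160, in TAC 29P. Groups did not overlap in either treatment, and the log2 fold changes were 0.90 (SE 0.23, adjusted p = 0.0118) and 0.82 (SE 0.22, adjusted p = 0.0127). The call was lost in vehicle without S2 (0.81, adjusted p = 0.0797), and under 29P without S14 (0.66, adjusted p = 0.0999) or with the run of library identifiers (described below) as a covariate (0.74, adjusted p = 0.0703). Timp3, the matrix-bound inhibitor that also blocks ADAMTS proteases, was the most abundant member per kilobase of exon in Sham Veh at 44.5 ± 24.8 CPM per kb (SD, n = 5), followed by Timp2 at 23.9 ± 6.89 CPM per kb, which did not differ beyond that spread. Timp3 ran from 168 to 621 CPM in Sham Veh, from 175 to 693 in Sham 29P, from 303 to 647 in TAC Veh and from 172 to 521 in TAC 29P, so all 4 groups overlapped. Its log2 fold change was 0.35 (SE 0.46, adjusted p = 0.572) in vehicle and -0.39 (SE 0.45, adjusted p = 0.507) under 29P. These became 0.91 (adjusted p = 0.108) and -0.61 (adjusted p = 0.183) without S18, S19 and S20. Timp4, the inhibitor known for its expression in heart, ran from 21.8 to 80.7 CPM in Sham Veh, 20.9 to 83.8 in Sham 29P, 23.5 to 51.9 in TAC Veh and 13.5 to 39.0 in TAC 29P, with log2 fold changes of -0.22 (adjusted p = 0.724) and -0.66 (adjusted p = 0.250). In vehicle the Timp4 difference had the opposite sign without S18, S19 and S20, at 0.30 (adjusted p = 0.651).

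Timp1, Timp3 and Timp4 lie within synapsin genes of the opposite strand, and the strand setting of the count is not given in the sources used here, so reads of either strand may be joined in these values. In mm10, Timp1 (chrX:20870166-20874735, plus strand) lies within Syn1, Timp3 (chr10:86300372-86349506, plus strand) within Syn3 and Timp4 (chr6:115241892-115252205, minus strand) within Syn2. Timp2 is at chr11:118301069-118355740 on the minus strand. In all, 18 of the 38 tested members overlapped another annotated gene.

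**Figure D2:**
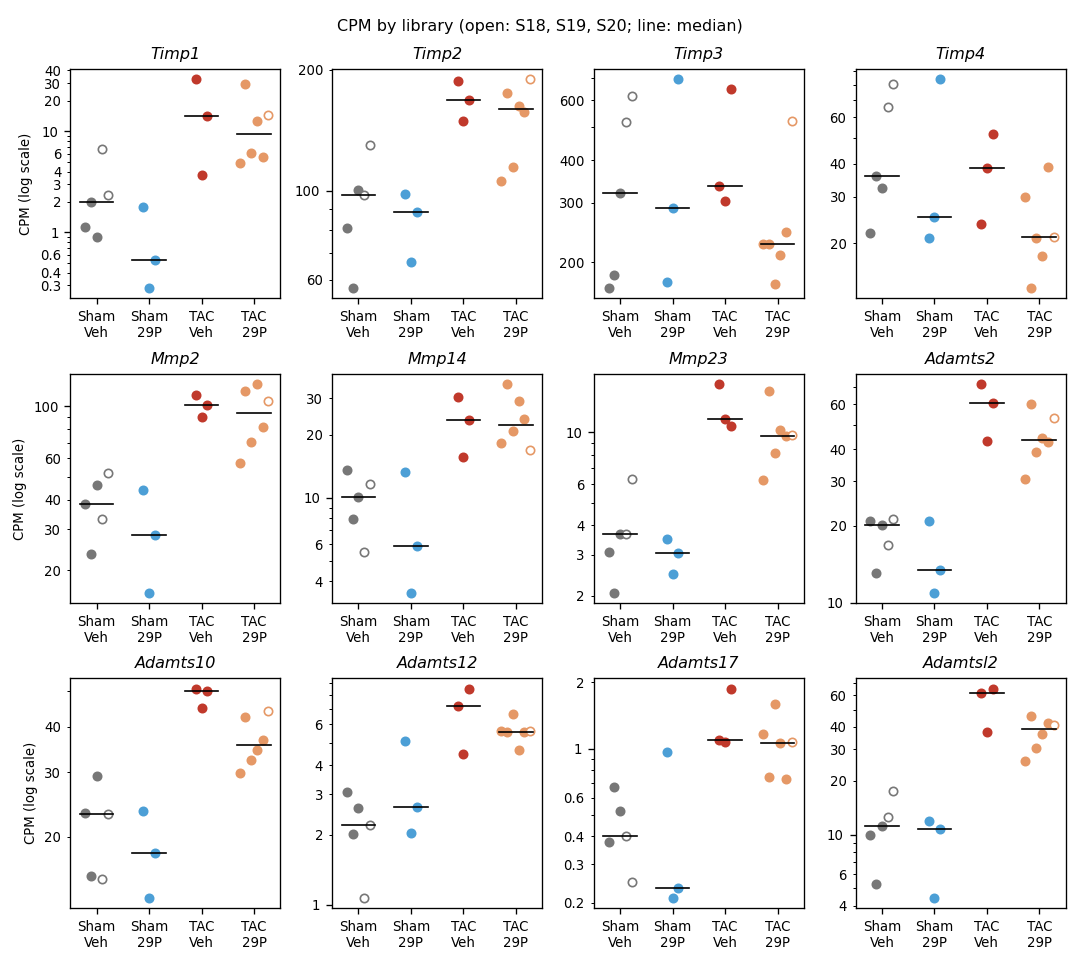
CPM of 12 members in each library, 1 panel per gene, with the 4 groups on the horizontal axis and the vertical axis in CPM on a log scale. Points are libraries, lines are group medians and open points are S18, S19 and S20. The TAC points of Mmp2, Mmp14, Mmp23, Adamts2, Adamts10 and Adamtsl2 lie above the Sham points of the same treatment, and those of Timp3 and Timp4 overlap them.

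Among the gelatinases, Mmp2 (gelatinase A, which cuts denatured collagen and basement membrane, chr8:92827291-92853420, plus strand) rose and Mmp9 did not pass the test. Mmp2 was 38.5, 23.5, 46.1, 33.2 and 52.0 CPM in Sham Veh and 112, 89.7 and 102 CPM in TAC Veh. It was 44.2, 16.1 and 28.2 CPM in Sham 29P and 57.4 to 124 CPM, median 93.7, in TAC 29P. The lowest TAC library stood above the highest Sham library in both treatments. The fold change of Mmp2 was 2.69 (95% interval 1.74 to 4.16, adjusted p = 0.00496) in vehicle and 3.27 (2.15 to 4.99, adjusted p = 0.0016) under 29P. With 11.5 ± 3.29 CPM per kb (SD, n = 5) in Sham Veh, Mmp2 was the most abundant protease of the families per kilobase, next to Adamts1 at 11.2 ± 1.75 and Mmp15 at 10.2 ± 3.29 CPM per kb, and these 3 did not differ beyond their spread. Mmp9 (gelatinase B, known from neutrophils and macrophages, chr2:164940780-164955850, plus strand) was at or below 1.03 CPM in all 17 libraries, with log2 fold changes of -0.07 (adjusted p = 0.932) and -0.25 (adjusted p = 0.747), and its vehicle difference ran from -0.75 to 0.31 when single libraries were left out. The 95% intervals of its fold change were 0.413 to 2.19 and 0.375 to 1.88.

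Mmp14, the membrane-type protease that activates the MMP2 precursor at the cell surface (chr14:54431612-54445364, plus strand), was 13.5, 7.97, 10.1, 5.50 and 11.6 CPM in Sham Veh and 30.2, 15.7 and 23.6 CPM in TAC Veh. It was 13.2, 3.52 and 5.92 CPM in Sham 29P and 16.9 to 35.0 CPM, median 22.4, in TAC 29P. Its groups did not overlap, and its log2 fold changes were 1.26 (SE 0.36, adjusted p = 0.0194) and 1.82 (SE 0.35, adjusted p = 0.0028). In vehicle the call of Mmp14 was lost without S2 (1.04, adjusted p = 0.125), without S16 (1.22, adjusted p = 0.0569) or without S18, S19 and S20 (1.11, adjusted p = 0.0585). Mmp23, a membrane protease without the hemopexin domain of most MMPs (chr4:155650655-155653384, minus strand), was 2.06 to 6.29 CPM in Sham Veh and 16.1, 11.3 and 10.6 CPM in TAC Veh. In Sham 29P it was 3.50, 2.47 and 3.05 CPM, against 6.26 to 15.04 CPM, median 9.68, in TAC 29P. No Sham library reached the lowest TAC library of the same treatment, and the log2 fold changes were 1.80 (SE 0.29, adjusted p = 0.00125) and 1.64 (SE 0.28, adjusted p = 0.00166). Of the other 9 tested MMPs, Mmp28 passed in vehicle alone at 0.83 (adjusted p = 0.0260, called in 4 of 8 fits that each left out 1 library) and Mmp12, the macrophage elastase, under 29P alone at 1.05 (adjusted p = 0.0440, called in 3 of 9 such fits). Neither passed without S18, S19 and S20 (0.66 with adjusted p = 0.114 for Mmp28 and 0.93 with adjusted p = 0.0750 for Mmp12), whereas Mmp11 and Mmp13 passed under 29P (0.66 and 0.93, adjusted p = 0.0446 and 0.0404). The membrane-type Mmp15, Mmp16 and Mmp17 and the secreted Mmp3, Mmp11, Mmp13 and Mmp19 passed in neither comparison, with log2 fold changes from -0.95 (Mmp3) to 0.80 (Mmp19) in vehicle and from 0.35 (Mmp16) to 1.41 (Mmp3) under 29P.

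Adamts2, the procollagen N-proteinase that trims the amino-terminal propeptide of fibrillar collagens (chr11:50602084-50807573, plus strand), had 20.8, 13.1, 20.2, 16.8 and 21.3 CPM in Sham Veh and 72.1, 43.3 and 60.9 CPM in TAC Veh. It had 20.9, 10.9 and 13.4 CPM in Sham 29P and 30.5 to 60.4 CPM, median 43.4, in TAC 29P. These groups did not overlap, and Adamts2 was 3.16-fold higher (95% interval 2.24 to 4.44, adjusted p = 0.000601) in vehicle and 3.00-fold higher (2.16 to 4.19, adjusted p = 0.000733) under 29P. The other procollagen N-proteinases, Adamts3 and Adamts14, did not pass the test: their log2 fold changes were 0.22 and -0.36 in vehicle and 0.00034 and 0.0065 under 29P.

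Adamts10 and Adamts17, a pair known for binding fibrillin microfibrils, rose in both treatments. Adamts10 (chr17:33524204-33553782, plus strand) was 23.3, 15.6, 29.3, 15.3 and 23.2 CPM in Sham Veh, 50.7, 44.9 and 50.1 in TAC Veh, 23.6, 13.7 and 18.1 in Sham 29P, and 29.9 to 44.1 CPM, median 35.6, in TAC 29P. TAC and Sham did not overlap in either treatment, and its log2 fold changes were 1.23 (SE 0.21, adjusted p = 0.00152) and 1.01 (SE 0.20, adjusted p = 0.00318). Adamts17 (chr7:66839735-67153171, plus strand) stayed near the test's lower limit, at 0.250 to 0.671 CPM in Sham Veh, 1.08 to 1.87 in TAC Veh, 0.211 to 0.968 in Sham 29P and 0.726 to 1.60 in TAC 29P. S4 of Sham 29P lay among the TAC 29P libraries, and its log2 fold changes were 1.42 (SE 0.40, adjusted p = 0.0188) and 1.23 (SE 0.39, adjusted p = 0.0252). Without S2 or S16 in vehicle, or S14 or S15 under 29P, Adamts17 no longer passed (adjusted p = 0.0699, 0.0788, 0.173 and 0.112), nor did it pass in vehicle without S18, S19 and S20 (1.20, adjusted p = 0.0781). Adamts12, which cuts cartilage oligomeric matrix protein (chr15:11064790-11349231, plus strand), was 1.07 to 3.07 CPM in Sham Veh and 4.45 to 8.53 in TAC Veh, with no overlap. Under 29P it was 5.07, 2.04 and 2.64 CPM in Sham and 4.64 to 6.64 CPM in TAC, where S4 of Sham overlapped, and the log2 fold changes were 1.60 (adjusted p = 0.00321) and 0.86 (adjusted p = 0.0365). Leaving out each library of the 29P comparison in turn kept the Adamts12 call in 3 of 9 fits, and it was lost without S1, S3, S8, S11, S14 or S15 (log2 fold change 0.59 to 0.86).

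Of the 7 ADAMTS proteases known for cutting the proteoglycans aggrecan and versican, 0 passed in vehicle and Adamts8 and Adamts20 passed under 29P. Adamts8 (chr9:30942562-30963838, plus strand) was 1.17, 0.626 and 0.991 CPM in Sham Veh libraries S5, S6 and S13 but 8.35 and 6.29 CPM in S19 and S20, the Sham libraries with atrial transcripts. It was 11.96, 3.13 and 6.77 CPM in TAC Veh, 0.830, 0.141 and 0.469 CPM in Sham 29P, and 3.13 to 13.95 CPM, median 4.29, in TAC 29P, where S18 was the highest. With all libraries its log2 fold change was 1.53 (SE 0.73, adjusted p = 0.121) in vehicle and 3.42 (SE 0.71, adjusted p = 0.00397) under 29P, a fold of 10.7 (95% interval 3.81 to 30.2). Without S18, S19 and S20 the log2 fold changes were 2.68 (adjusted p = 0.0072) and 3.15 (adjusted p = 0.0021), past the threshold in both. Adamts20 (chr15:94270163-94465418, minus strand) was at most 2.29 CPM, and its log2 fold changes were 1.35 (adjusted p = 0.0771) and 1.87 (adjusted p = 0.0175). In Sham 29P it was 0.0001 CPM, the authors' own constant, in S14 and 0.0588 CPM in S15. At such levels the fold depends on the 0.1 CPM added. The 29P call of Adamts20 was lost without S14 (1.44, adjusted p = 0.131) or S15 (1.77, adjusted p = 0.0546), and its vehicle difference passed without S20 (1.70, adjusted p = 0.0303) and without S18, S19 and S20 (1.88, adjusted p = 0.0400).

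Adamts1, the proteoglycan-cutting protease that is also known as an inhibitor of vessel growth (chr16:85793827-85803113, minus strand), was 45.7, 59.1, 56.9, 63.8 and 70.8 CPM in Sham Veh and 67.0, 114 and 175 CPM in TAC Veh. It was 44.4, 39.2 and 56.2 CPM in Sham 29P and 46.7 to 157 CPM, median 56.3, in TAC 29P. S2 of TAC Veh lay below S20, a Sham Veh library with atrial transcripts, and above the other 4, and the log2 fold changes were 0.91 (SE 0.33, adjusted p = 0.0523) and 0.55 (SE 0.32, adjusted p = 0.192). The vehicle difference of Adamts1 passed without S18, S19 and S20 (1.04, adjusted p = 0.0272) and with the run of library identifiers as a covariate (0.92, adjusted p = 0.0303). Adamts6, which differed by 0.95 in vehicle (adjusted p = 0.00655) and 0.44 under 29P (adjusted p = 0.104), was called in 7 of 8 vehicle fits that each left out 1 library, all but that without S2. The remaining proteoglycan-cutting members, Adamts4, Adamts5, Adamts9 and Adamts15, did not pass in either surgery comparison. The 29P difference of Adamts15 was 0.70 (adjusted p = 0.0552). It passed without S1 (0.78, adjusted p = 0.0460) or S4 (1.03, adjusted p = 0.0089) and not in the other 7 of 9 such fits. With the run of library identifiers as a covariate it was 0.29 (adjusted p = 0.487).

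Of the 5 ADAMTSL genes, 3 passed the test in each comparison (Adamtsl1, Adamtsl2 and Adamtsl5), and all 5 differences were above 0, as were 81.2% and 83.8% of all genes. With TMM factors the 29P differences of Adamtsl3 and Adamtsl4 were -0.05 and 0.00059. Adamtsl2, a fibrillin-binding glycoprotein linked to geleophysic dysplasia (chr2:27079379-27108981, plus strand), had 9.88, 5.28, 11.1, 12.5 and 17.5 CPM in Sham Veh and 61.6, 37.4 and 65.3 CPM in TAC Veh. It had 11.9, 4.44 and 10.7 CPM in Sham 29P and 25.7 to 46.3 CPM, median 38.8, in TAC 29P. The gap between groups was wide in both treatments, since the lowest TAC library stood above the highest Sham library. Adamtsl2 was 5.03-fold higher (95% interval 3.08 to 8.22, adjusted p = 0.000719) in vehicle and 4.35-fold higher (2.70 to 6.996, adjusted p = 0.00111) under 29P. Adamtsl5 (chr10:80339110-80348412, minus strand) was 27.0 to 50.3 CPM in Sham Veh against 58.6 to 81.1 in TAC Veh, and 24.8 to 47.1 in Sham 29P against 60.3 to 73.1 in TAC 29P, with log2 fold changes of 0.91 (adjusted p = 0.00764) and 0.95 (adjusted p = 0.00456). It no longer passed without S2 in vehicle (0.77, adjusted p = 0.0709) or without S14 under 29P (0.73, adjusted p = 0.0503), and its 29P difference was 0.82 (adjusted p = 0.0550) with the run of library identifiers as a covariate. Adamtsl1 differed by 0.86 (adjusted p = 0.0457) and 0.89 (adjusted p = 0.0298), and its vehicle call was kept in 1 of 8 fits that each left out 1 library.

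RNA of the whole apex was measured, so a higher value may come from more cells of a type or from more RNA per cell, and these cannot be told apart. The fibroblast markers Pdgfra, Dcn, Lum, Tcf21, Gsn and Col1a1 summed to 1122 to 2123 CPM in Sham Veh and 2061 to 2596 CPM in TAC Veh. These overlapped through S20, a Sham Veh library with atrial transcripts. Under 29P the markers summed to 922 to 1413 CPM in Sham and 1516 to 2700 CPM in TAC, without overlap. In vehicle 4 of 6 fibroblast markers were called higher and under 29P 5 of 6, beside 23.6% and 31.5% of all genes. Their median log2 fold change was 0.56 in vehicle and 0.82 under 29P, beside 0.33 and 0.36 for all genes. The 6 macrophage markers summed to 96.5 to 198 CPM in Sham and 221 to 362 CPM in TAC, and 6 of 6 were called higher in both comparisons, beside the same shares of all genes. Endothelial markers summed to 522 to 998 CPM in Sham and 897 to 1261 in TAC, and mural markers to 900 to 1259 in Sham and 1184 to 1630 in TAC. Hemoglobin transcripts of red cells (Hba-a1, Hba-a2, Hbb-bs and Hbb-bt) summed to 1009 to 2438 CPM in Sham Veh and 3052 to 4933 CPM in TAC Veh, without overlap. Under 29P they summed to 555 to 1663 CPM in Sham 29P and 1027 to 4118 CPM, median 1441, in TAC 29P. All 4 were called higher in vehicle, beside 23.6% of all genes. At an unadjusted p of 0.05, all 4 were lower under 29P within TAC, beside 1.11% of all genes. The 4 adipocyte markers summed to 10.8, 2.68 and 16.6 CPM in S18, S19 and S20 and to at most 3.05 CPM elsewhere. Neutrophil markers stayed at or below 17.4 CPM in sum. The part of these cell types in the changes of the members was not tested.

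Since members of a family that move together may share sequence near their start sites, the 250 bases before the start were read for the 28 members present in a RefSeq promoter table (GRCm38.p6), among them 9 of the 12 that rose in both comparisons. On both strands, the GC box GGGCGG was found in 19 of 28 and in 6 of the 9, beside 35.4% of the 27025 genes of the table, the TATA box TATAAA in 4 of 28 and in 1 of the 9, beside 14.3%, and the AP-1 site TGANTCA in 3 of 28 (Mmp3, Mmp12 and Mmp13) and in 0 of the 9, beside 7.82%. A gene was counted where any of its promoters in the table held the letters. Those matches are letters in a window and not sites shown to be bound. Mmp23, Adamts12 and Adamts17, which also rose, held none of these letters, and Mmp12, with AP-1 letters, was called under 29P alone. The sequences below were picked to show each motif, and no difference in motifs between members that rose and the others was tested. They are printed in the direction of transcription with matches in capitals (Adamtsl2 holds both a GC and a TATA box). Timp1, Mmp14 and Adamtsl2 rose, and Mmp3 and Mmp13 did not pass:
Timp1 (chrX:20869916-20870165, plus strand): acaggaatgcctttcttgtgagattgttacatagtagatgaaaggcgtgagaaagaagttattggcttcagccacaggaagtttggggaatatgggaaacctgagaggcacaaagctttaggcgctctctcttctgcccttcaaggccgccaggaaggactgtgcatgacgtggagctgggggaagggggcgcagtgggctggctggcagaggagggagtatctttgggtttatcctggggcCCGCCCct
Mmp14 (chr14:54431348-54431597, plus strand): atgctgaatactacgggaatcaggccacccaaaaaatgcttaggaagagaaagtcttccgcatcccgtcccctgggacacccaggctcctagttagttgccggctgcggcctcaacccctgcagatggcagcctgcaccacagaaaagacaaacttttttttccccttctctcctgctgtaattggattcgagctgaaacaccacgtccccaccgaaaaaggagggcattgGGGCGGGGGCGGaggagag
Adamtsl2 (chr2:27079129-27079378, plus strand): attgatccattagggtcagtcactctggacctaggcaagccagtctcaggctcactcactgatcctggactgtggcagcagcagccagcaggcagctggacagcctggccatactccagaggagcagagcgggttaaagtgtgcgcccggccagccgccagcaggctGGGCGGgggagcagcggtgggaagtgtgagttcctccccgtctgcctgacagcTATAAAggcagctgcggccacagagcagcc
Mmp3 (chr9:7445572-7445821, plus strand): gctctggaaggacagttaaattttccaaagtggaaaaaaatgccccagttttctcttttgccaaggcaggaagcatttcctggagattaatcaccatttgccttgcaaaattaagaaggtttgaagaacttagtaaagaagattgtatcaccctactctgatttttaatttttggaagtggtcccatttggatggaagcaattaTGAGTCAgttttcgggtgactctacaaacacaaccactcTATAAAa
Mmp13 (chr9:7272264-7272513, plus strand): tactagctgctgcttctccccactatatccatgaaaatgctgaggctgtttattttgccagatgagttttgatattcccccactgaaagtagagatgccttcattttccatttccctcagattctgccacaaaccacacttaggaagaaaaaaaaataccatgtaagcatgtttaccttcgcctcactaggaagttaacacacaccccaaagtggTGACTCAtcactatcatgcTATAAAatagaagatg

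Whether 29P altered these genes in the overloaded ventricle was asked by comparing TAC 29P with TAC Veh. No gene of the 16218 passed an adjusted p of 0.05 in limma (smallest 0.959), so members are given at an unadjusted p of 0.05, the threshold of the study's methods. By that rule Adamts15 was higher and Adamts1 lower, 1 of 38 in each direction, beside 0.950% and 1.11% of all genes. Libraries of the 2 groups did not overlap for Adamts15 and Mmp15, which were higher, and for Adamts10, which was lower, beside 0.839% and 0.987% of all genes. The median member was -0.17 on the log2 scale, beside -0.02 for all genes, and 13 of 38 were above 0, beside 44.6% of all genes.

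Adamts15, a proteoglycan-cutting protease (chr9:30899155-30922452, minus strand), was 6.83, 5.33 and 4.58 CPM in TAC Veh and 7.15, 9.31, 8.48, 10.7, 9.35 and 11.96 CPM in the TAC 29P libraries S1, S3, S8, S9, S11 and S18. Each of the 6 TAC 29P libraries lay above all 3 TAC Veh libraries, while the Sham Veh libraries ran from 5.24 to 10.7 CPM and the Sham 29P libraries from 3.59 to 9.04 CPM. The log2 difference was 0.75 (SE 0.27, unadjusted p = 0.0124, adjusted p = 0.99998 over all genes), and the exact permutation p was 0.0119, the smallest this design allows. Without S18, S19 and S20 it was 0.68 (unadjusted p = 0.0225), and without S16 it was 0.62 (unadjusted p = 0.0647). Mmp15, the membrane-type protease known as MT2-MMP, was 62.7, 64.1 and 53.6 CPM in TAC Veh and 67.9 to 89.3 CPM in TAC 29P, a log2 difference of 0.39 (unadjusted p = 0.120).

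Adamts1 was lower by 0.71 on the log2 scale in TAC 29P (SE 0.32, unadjusted p = 0.0407), but its exact permutation p was 0.179 and 4 of 6 TAC 29P libraries lay below all TAC Veh libraries. S18, one of the libraries with atrial transcripts, was highest at 157 CPM, and without S18, S19 and S20 the difference was -0.96 (unadjusted p = 0.0018). Leaving out each library of the comparison in turn gave -1.07 to -0.38, with the call kept in 3 of 9 fits and lost without S1, S3, S8, S9, S12 or S16. Adamts10 was 44.9 to 50.7 CPM in TAC Veh and 29.9 to 44.1 CPM in TAC 29P, a log2 difference of -0.42 (SE 0.20, unadjusted p = 0.0509) with an exact permutation p of 0.0357. The Adamts10 difference was -0.47 (unadjusted p = 0.0286) without S18, S19 and S20. With TMM factors Adamts10 passed at -0.39 (unadjusted p = 0.0162), and Adamts1 did not pass at -0.69 (unadjusted p = 0.0539). Timp3 differed by -0.70 (SE 0.45, unadjusted p = 0.137, exact permutation p = 0.131), with 5 of 6 TAC 29P libraries below all TAC Veh libraries and S18 the exception. The Timp3 difference without S18, S19 and S20 was -0.91 (unadjusted p = 0.0195), and with the run of library identifiers as a covariate it was -0.25 (unadjusted p = 0.214). Timp4 differed by -0.69 (unadjusted p = 0.135), with 4 of 6 libraries below all TAC Veh libraries. Members called without S18, S19 and S20 were thus 1 of 38 higher (Adamts15) and 3 lower (Adamts1, Adamts10 and Timp3), beside 1.20% and 1.95% of all genes. For Timp1, Timp2, Mmp2 and Mmp14 the differences were -0.30, -0.18, -0.17 and 0.05, and the 95% intervals of the Mmp2 and Mmp14 ratios, 0.582 to 1.35 and 0.628 to 1.72, still hold changes of over 1.5 times.

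**Figure D3:**
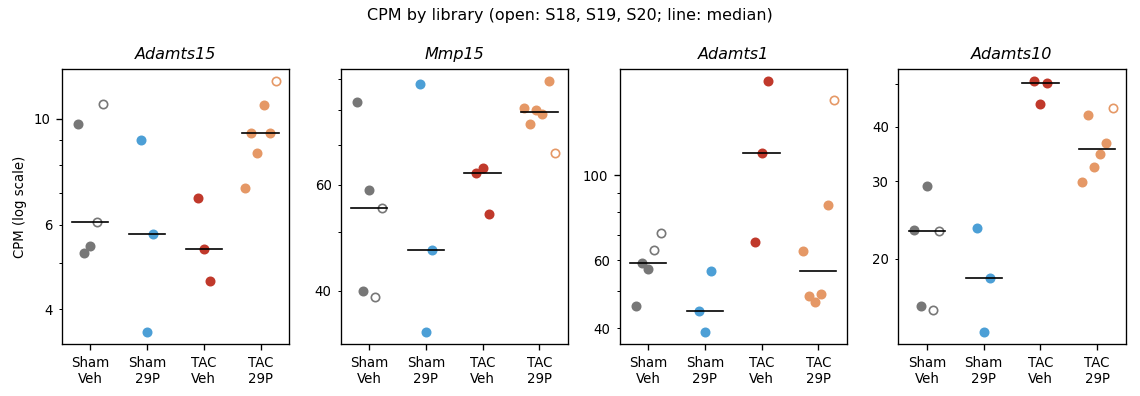
CPM of Adamts15, Mmp15, Adamts1 and Adamts10 in the 4 groups, with the vertical axis in CPM on a log scale, 1 point per library and lines at group medians. Open points are S18, S19 and S20. The 6 TAC 29P points of Adamts15 lie above the 3 TAC Veh points, and those of Adamts10 lie below them.

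Within Sham, Sham 29P was compared with Sham Veh, and 0 members were higher and 2 lower at an unadjusted p of 0.05, beside 1.57% and 5.15% of all genes, with no gene at an adjusted p of 0.05 in limma (smallest 0.715). Adamts8 had a log2 difference of -2.14 (SE 0.73, unadjusted p = 0.0091), and Adamts20 of -1.39 (SE 0.56, unadjusted p = 0.0225), with exact permutation p of 0.107 and 0.0893. Without S18, S19 and S20 the differences were -0.99 (unadjusted p = 0.0742) and -0.85 (unadjusted p = 0.157), and without S14 alone they were -1.61 (unadjusted p = 0.0669) and -0.96 (unadjusted p = 0.136). Adamts20 was also lost without S15 (-1.29) or S20 (-1.04), and at its low Sham 29P values the fold depends on the constant added.

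The interaction, which asks if the TAC effect differed between 29P and vehicle, put 2 members higher and 0 lower at an unadjusted p of 0.05, beside 1.92% and 0.937% of all genes (smallest adjusted p in limma 0.999). Adamts15 differed by 1.06 (SE 0.39, unadjusted p = 0.0140), from a log2 fold change of -0.36 in vehicle to 0.70 under 29P. Without S18, S19 and S20 this interaction was 0.87 (unadjusted p = 0.0480), and without S14 it was 0.73 (unadjusted p = 0.0652). Mmp3, a stromelysin (chr9:7445822-7455975, plus strand) in a cluster of 5 MMP genes that spans 309 kb of chromosome 9, differed by 2.36 (SE 0.98, unadjusted p = 0.0273). Mmp3 was 2.65, 3.80 and 2.04 CPM in S5, S6 and S13 of Sham Veh but 12.3 and 6.24 CPM in S19 and S20, and it was 24.0 CPM in S18 against 1.41 to 4.85 CPM in the other 5 TAC 29P libraries. The 3 libraries with atrial transcripts were thus the 3 highest for Mmp3, and without them the interaction was 1.21 (unadjusted p = 0.0968). It was also not past the threshold without S2 (2.22), S14 (1.64) or S19 (1.99). In the fit without the libraries with atrial transcripts, members not called above also passed. They were Timp3 at -1.52 (unadjusted p = 0.0107), against -0.75 (unadjusted p = 0.261) with all libraries, and Mmp13 at 1.26 (unadjusted p = 0.0200), against 0.68 (unadjusted p = 0.235), in a fit that called 1.95% of all genes lower and 1.85% higher.

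**Figure D4:**
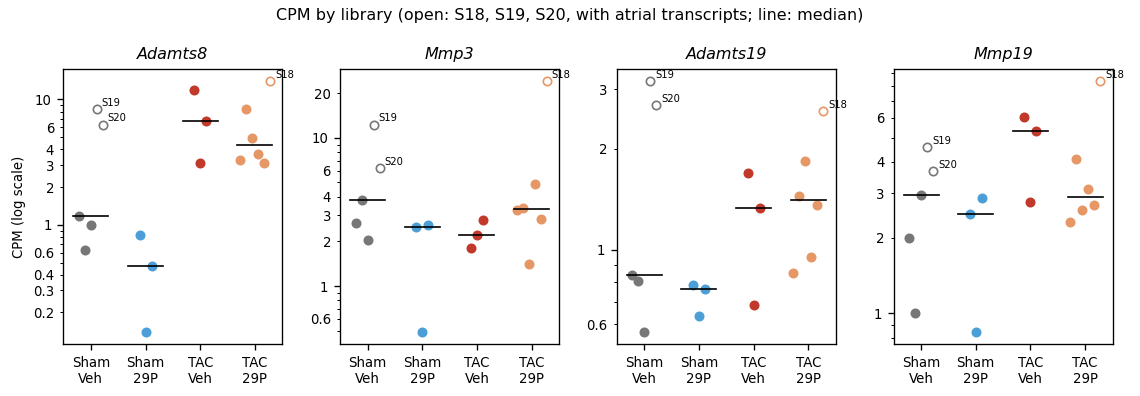
CPM of Adamts8, Mmp3, Adamts19 and Mmp19 in the 4 groups, with the vertical axis in CPM on a log scale, 1 point per library and lines at group medians. Open points mark S18, S19 and S20, the libraries with transcripts of atrial muscle, and for Mmp3 these are the 3 highest values (24.0, 12.3 and 6.24 CPM).

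The identifiers of the libraries in the labels fall into 4 numerical runs of 9, 3, 2 and 3 libraries, the last of which is S18, S19 and S20, and no source states that a run is a batch. Of the 6 TAC 29P libraries, 5 are in the first run, while the TAC Veh libraries are 1 each in the first 3 runs. Timp3 followed these runs: it was 168 to 336 CPM in the first run, 289 to 320 in the second, 647 to 693 in the third and 519 to 621 in the fourth. TAC was higher than Sham within all 4 runs for 22 of 38 members (57.9%), beside 54.3% of all genes. These within-run differences mix treatments, since the third run holds TAC Veh with Sham 29P and the fourth TAC 29P with Sham Veh. The 12 members that rose in both comparisons were among the 22, but they were chosen from these same libraries, so this adds no support. With the run as a covariate, 16 members were called in vehicle, 13 of them called above, beside 20.5% of all genes. Under 29P 8 were called, all of them called above, beside 5.06% of all genes. In vehicle that fit added Adamts1, Adamts8 and Adamts20 and lost Mmp28. Under 29P it lost Timp2, Mmp12, Adamts12, Adamts17, Adamts20, Adamtsl1 and Adamtsl5, with adjusted p from 0.0550 (Adamtsl5) to 0.222 (Adamts20). Thus 7 of the 12 members that rose in both comparisons were called in both with the run in the fit. For 29P within TAC, 4 of 38 members were lower in that fit at an unadjusted p of 0.05 (Timp1, Adamts2, Adamts8 and Adamts20), beside 2.02% of all genes. The difference of Adamts15 between TAC 29P and TAC Veh became 0.34 (unadjusted p = 0.240) and its interaction 0.31 (unadjusted p = 0.497) with that covariate, and that of Adamts1 became -0.45 (unadjusted p = 0.120). The part of the run in the 29P differences was not tested further, because the first run holds a single TAC Veh library.

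**Figure D5:**
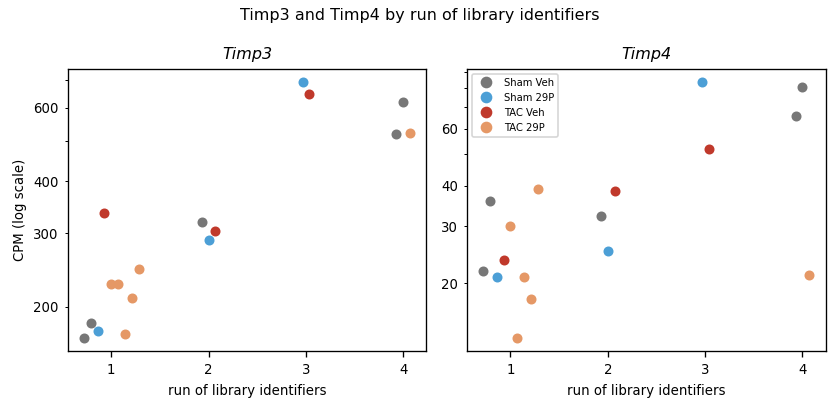
CPM of Timp3 and Timp4 by run of library identifiers, with the vertical axis in CPM on a log scale, 1 point per library and colours for the 4 groups. The 5 Timp3 points of the third and the fourth runs, from 519 to 693 CPM, lie above the 12 points of the first 2 runs, from 168 to 336 CPM.

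Other genes of matrix turnover were given as 3 lists, none of whose genes was called lower after TAC. Their counts stand beside 23.6% of all genes called higher in vehicle and 31.5% under 29P. Of 20 tested other matrix proteases and sheddases, 10 were called higher in vehicle and 15 under 29P, among them Bmp1, the procollagen C-proteinase, at log2 fold changes of 1.19 and 1.14, and Ctsk at 1.46 and 2.03. Of 10 tested other protease inhibitors, 6 and 8 were called higher, among them Reck, a membrane-anchored MMP inhibitor, at 0.95 and 0.71. Of 14 tested matrix substrates, 11 were called higher in each comparison, among them Bgn at 1.82 and 1.79, Fbn1 at 1.93 and 2.07 and Fn1 at 1.82 and 1.64. The medians of the 3 lists were 0.60, 0.89 and 1.72 in vehicle and 0.62, 0.89 and 1.78 under 29P, beside 0.73 and 0.84 for the members and 0.33 and 0.36 for all genes.

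The 5 members below the limit for testing were Mmp8 (a neutrophil collagenase, at most 0.300 CPM), Mmp24 (0.438), Mmp25 (0.415), Mmp27 (0.190) and Adamts16 (0.499). None of them reached 0.5 CPM in any of the 17 libraries, which at the median depth is about 10.2 reads, so these values rest on few reads. Mmp24, a membrane-type MMP, was listed at 0 in 4 of 5 Sham Veh libraries and at 0.0556 CPM in the other, against 0.115, 0.114 and 0.438 CPM in TAC Veh. These groups did not overlap. In a fit with no filter on low values its log2 fold change was 1.41 (adjusted p = 0.0254) in vehicle and -0.01 (adjusted p = 0.987) under 29P, with an interaction of -1.43 (unadjusted p = 0.0207). At such levels a fold depends on the constant added. The other 4 passed in neither surgery comparison of that fit.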

How the data were processed

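The authors sequenced polyadenylated RNA (NEBNext Ultra II) from snap-frozen left ventricle apex and aligned the reads with STAR 2.3.7 to mm10 in Partek Flow. The counter and its strand setting are not given in the sources used here. They deposited gene values in CPM with 0.0001 added, for 17 libraries and 21798 genes. Between 83.0 and 85.5% of low values were whole multiples (within 0.03) of a per-library step, so depth was estimated but counts were not restored and no count test was run.

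Groups came from the sample titles. Genes with at least 0.5 CPM in 3 or more libraries were fitted as log2(CPM + 0.1) with limma 3.58.1 in R 4.3.3 (trended variance, 4 group means, 13 residual degrees of freedom), with Benjamini-Hochberg adjustment over 16218 genes. Calls used an adjusted p of 0.05 between TAC and Sham and an unadjusted p of 0.05 for 29P and the interaction. Exact two-sided permutation tests compared the libraries of each pair of groups. The script was tested on simulated data. Values were given by library or by group for Timp1 to Timp4, Mmp2, Mmp9, Mmp14 and Adamts1. The same was done for the 10 members with the largest mean change among those called in both surgery comparisons. Members called for 29P or the interaction were also given in this way. For Mmp9 and Adamts20 this was chiefly the highest value. Mmp15, the MMP and ADAMTS genes plotted beside the atrial transcripts, and other members called in a single comparison were named after their values were seen. The members, lists and tests were chosen with earlier results of these data known. Alternatives were TMM and median-of-ratios scaling, totals without mitochondrial genes, other added constants, no filter or one at 1 CPM, fits of the compared groups only, a covariate for the run of library identifiers, and the omission of single libraries. The omission of S18 to S20, with or without S14, was added after seeing the data. Sequences are from RefSeq (GRCm38.p6) and GENCODE vM21.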

Additional observations from a re-analysis of the deposited data

Results flagged for a closer look

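Timp3 in S18 of TAC 29P was 521 CPM, against 172 to 246 CPM in the other 5 libraries of that group, a gap wider than Dixon's 95% limit on the log2 scale. It was the only such value among 38 group and gene pairs checked, and chance alone gives about 1 in 20. S18 is also one of the 3 libraries with atrial transcripts, whose part in this value was not tested.

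The effect of TAC on Mmp3 differed between 29P and vehicle by 2.36 on the log2 scale, from -0.95 in vehicle to 1.41 under 29P (unadjusted p = 0.0273 in limma, adjusted p = 0.999). That of Adamts15 differed by 1.06, from -0.36 to 0.70 (unadjusted p = 0.0140, adjusted p = 0.999). Neither passed the adjustment over all genes.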

How the results depend on the processing

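Over all settings tried for the 38 members, no call between TAC and Sham, or of 29P within TAC or within Sham, changed sign. The interaction of Mmp19 did: it was 0.08 and not called, and -1.14 without S18 to S20 and S14 and passed there. Differences that were not called changed sign in some setting for 11 members in vehicle and 7 under 29P, among them Timp4 in vehicle (-0.49 to 0.08 when single libraries were left out) and Timp3 under 29P (-0.84 to 0.15). No paired analysis was possible because the labels number the libraries in 1 series and give the groups no shared replicate numbers. Of the 14 members higher in TAC Veh than in Sham Veh, 8 were called with TMM and 8 with median-of-ratios factors. Those scalings also changed the split over all genes, from 3827 higher and 321 lower to 722 and 923 (TMM, vehicle), and from 5110 and 187 to 955 and 871 (TMM, 29P). Under 29P the 15 became 8 with the run covariate and 9 without S18 to S20 and S14. All genes called higher there went from 5110 to 820 and 1330. For 29P within TAC, members higher numbered 2 with TMM, 2 with median-of-ratios and 2 with only the groups compared. They numbered 0 with the run covariate or an adjusted p. All genes called higher numbered 233, 220, 277 and, with the run covariate, 126 of 16218, against 154 in the fit used above. Members lower numbered 2 with totals without mitochondrial genes, 2 with 1 added to CPM, 2 with no filter and 4 with only the groups compared. All genes called lower there numbered 167, 243, 335 (of 21774) and 417, against 180 in the fit used above. Members lower also numbered 4 with the run covariate, 3 without S18 to S20, 4 without S18 to S20 and S14, and 0 at an adjusted p. In the first 3 of these, all genes called lower numbered 327, 317 and 421. For 29P within Sham, members higher numbered 1 with TMM and 1 with median-of-ratios, beside 560 and 539 of all genes (255 in the fit used above). Members lower numbered 4 with no added constant, 4 with only the groups compared, 1 with 1 added to CPM and 1 with the run covariate. All genes called lower there numbered 956, 404, 732 and 460, against 835 in the fit used above. Members lower numbered 0 without S18 to S20 (435 of all genes), without these and S14 (203), or at an adjusted p. For the interaction, members higher numbered 0 with the run covariate, 1 without S18 to S20 and S14, and 0 at an adjusted p. All genes called higher numbered 85 with the run covariate and 200 without those libraries, against 311 in the fit used above. Members lower in the interaction numbered 1 with TMM, 1 with median-of-ratios, 1 with no filter, 1 with the run covariate, 1 without S18 to S20, and 3 without S18 to S20 and S14. Adamts6 was that member with TMM and with the run covariate. The cause of these changes was not tested.

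Leaving out 1 library at a time gave 6 to 15 members higher in TAC Veh (6 without S2, 9 without S16) and 8 to 20 under 29P (8 without S14, 20 without S4). The share of all genes called higher moved in the same fits, from 2.86% without S2 to 27.3% in vehicle, and from 6.22% without S14 to 39.1% without S4 under 29P. For 29P within TAC, such omissions gave 0 to 1 members higher and 0 to 3 lower, beside 0.401 to 1.63% and 0.697 to 2.26% of all genes. Within Sham they gave 0 to 1 higher and 0 to 8 lower, beside 0.839 to 3.51% and 1.41 to 13.9%. For the interaction they gave 0 to 5 higher and 0 to 1 lower, beside 0.876 to 7.09% and 0.691 to 1.73%. Without S4, 13.9% of all genes were lower for 29P within Sham and 7.09% higher in the interaction. Mmp2, Mmp23, Adamts2, Adamts10 and Adamtsl2 were called in every such fit of both surgery comparisons. Mmp9, at or below 1.03 CPM, rests on few reads in every library.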

Other observations

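Mmp2 and its inhibitor Timp2 both rose after TAC, and their ratio within each library, chosen after the values were seen, was also higher. The log2 ratio of Mmp2 to Timp2 CPM (mean ± SD) was -0.74 ± 0.01 in the 3 TAC Veh libraries against -1.27 ± 0.19 in the 5 of Sham Veh, and -0.72 ± 0.21 in the 6 TAC 29P libraries against -1.61 ± 0.45 in the 3 of Sham 29P. Each TAC Veh library lay above every Sham Veh library, and each TAC 29P library above every Sham 29P library. The log2 ratio of Timp1 to Timp4 was -4.31 ± 0.74 in Sham Veh, -5.52 ± 1.85 in Sham 29P, -1.58 ± 1.93 in TAC Veh and -1.19 ± 1.49 in TAC 29P. Of the other ratios computed, that of Mmp14 to Timp2 ran from -3.24 to -2.63 in TAC Veh against -4.13 to -2.56 in Sham Veh, and that of Mmp2 to Timp3 from -2.67 to -1.59 against -3.96 to -2.12, so both overlapped. No test was made on these 4 ratios.

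The motif of the protease domain did not separate members that rose from those that did not: 7 of the 28 tested members with the zinc-binding motif and 5 of the 10 without it were among the 12 that rose in both surgery comparisons, given as counts with no test. Adamts8, an ADAMTS protease in which this search found neither form of the motif, was counted among the 10, so the 10 are not all without protease function.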
